A study of Mus musculus with 20 samples.

Results

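A group of 3 nearby entries of a pancreas transcriptome table were all but absent after saline and abundant after cerulein, a cholecystokinin analogue that causes acute pancreatitis when overdosed. The deposited count table gives no gene identifiers or names, so its entries are known by their place below the header: the text describes row 17248's, row 17250's and row 17251's counts and writes the entries as row-17248, row-17250 and row-17251. They are 3 of 57126 rows. They were chosen by their large increase from PBS to cerulein in these same libraries, so every value of that contrast is a description, and no test of it is used as support. No gene was assigned from the order of rows, and what the 3 transcripts encode was not analysed here.

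The mice were littermates aged 6 to 8 weeks, either wild type (WT) or lacking the microRNA miR146a (KO). Each genotype received 7 hourly intraperitoneal injections of cerulein at 50 µg/kg or of phosphate-buffered saline (PBS), and the pancreas was frozen 1 h after the last injection. The PBS groups hold 5 libraries of each genotype, and the cerulein groups hold 4 of WT and 5 of KO. WT cerulein replicate 2 was left out because its column is 0 in every row. The labels give no strain, sex, allele design of the knockout or statement on pooling of animals, so p-values measure the spread between these samples. Neither the knockout nor the pancreatic identity of the tissue could be checked against marker genes, since no row has a name.

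Acinar cells make up most of the exocrine pancreas and secrete digestive enzymes when cholecystokinin binds them. Excess stimulation blocks that secretion, activates the enzymes inside the cell and sets off NF-kB signalling, a central switch of inflammatory transcription. miR-146a is known as a brake on that pathway, acting on the transcripts of the signalling proteins Traf6 and Irak1. In whole tissue, a change in the number of cells of one type cannot be told apart from a change in RNA per cell.

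Library totals ran from 806076 to 36347215 counts, and 4 PBS libraries lay under 2000000. Libraries differed in expression profile, and 3 of them are left out together in an alternative below. WT PBS replicate 4 had a mean Spearman correlation of 0.788 with the KO cerulein libraries and of 0.737 with its own group. KO PBS replicate 1, the shallowest library, was likewise nearer to KO cerulein (0.757) than to its own group (0.716). Most PBS libraries shared this trait, so it did not set WT PBS replicate 4 or KO PBS replicate 1 apart. WT PBS replicate 3 reached 0.811 with WT cerulein against 0.756 with its own group, and KO PBS replicate 4 reached 0.871 against 0.834. For KO PBS replicate 2 the gap was small (0.802 with KO cerulein against 0.801). Only WT PBS replicate 1 (0.774) and WT PBS replicate 2 (0.772) were nearest to their own group when set against the cerulein groups. KO cerulein replicates 1 and 4 correlated with the WT cerulein libraries at 0.860 and 0.859, against 0.919 to 0.937 for the other 3 KO cerulein libraries. The 15 most abundant rows held 2.15% of the counts of WT PBS replicate 4, 25.0% of those of KO cerulein replicate 1 and 22.7% of those of replicate 4, against 42.6% to 46.7% in the other 3 KO cerulein libraries. That share was also low in WT PBS replicates 1 and 5 (13.1% and 16.0%) and in KO PBS replicate 1 (14.2%), which stayed in. In 11 of 19 libraries, more rows held exactly 7 counts than exactly 3. The intervals and limits below cover counting error only, and whether a count of a few reads stands for that many molecules was not tested.

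Row-17248 had the lowest counts of the 3. Not 1 count fell on it in the 5 WT PBS libraries. After cerulein, WT replicates 1, 3, 4 and 5 had 96.2, 90.8, 94.4 and 100.3 CPM (counts scaled to a common library size, by the trimmed mean of M values, TMM). In KO PBS libraries it had 0 counts in replicates 1, 2 and 3, 5 counts in replicate 4 (0.275 CPM) and 7 in replicate 5 (1.01 CPM). In KO mice given cerulein it had 26.1, 90.3, 84.3, 29.7 and 68.8 CPM in replicates 1 to 5. The lowest cerulein library was 25.7 times the highest PBS library over both genotypes.

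In TMM-scaled CPM the WT cerulein libraries were close to one another for row-17248, at 95.4 CPM ± 3.98 (SD, n = 4). Counting error alone would give an SD of 3.62 CPM at these counts. The closeness depended on the scaling: as a plain share of all counts the same libraries ranged from 0.00718% to 0.0103%. The KO cerulein libraries were spread widely, at 59.8 CPM ± 30.2 (SD, n = 5), and the low values were those of replicates 1 and 4, the KO libraries least like WT cerulein. Without them the KO level was 81.1 CPM ± 11.1 (SD, n = 3). Against the limit that 3 counts over the 5 WT PBS libraries allow, WT cerulein was at least 831-fold higher. That bound rested most on WT PBS replicate 5 and was 405-fold without it. In KO the fitted log2 fold change was 7.25 (SE 0.63), and 8.31 without KO PBS replicate 5.

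Row-17250 was nearly silent after PBS and had at least 5570 counts in every cerulein library. The 5 WT PBS libraries held 0, 6, 0, 0 and 12 counts in replicates 1 to 5, which is at most 3.89 CPM. WT replicates 1, 3, 4 and 5 given cerulein had 1001, 2622, 1749 and 905 CPM. The KO PBS libraries held 0, 4, 0, 34 and 10 counts, at most 2.39 CPM. KO libraries after cerulein had 878, 1125, 1935, 649 and 2063 CPM in replicates 1 to 5. No cerulein library overlapped a PBS library, and the lowest of them was 167 times the highest PBS library. The mean after cerulein was 1569 CPM ± 797 (SD, n = 4) in WT and 1330.0 CPM ± 635 (SD, n = 5) in KO. The cerulein mean was 1639.6 times the PBS mean in WT and 1165 times in KO, and the fitted log2 fold change in WT was 11.09 (SE 0.96). The WT values depended on the 6 counts of WT PBS replicate 2: without it the ratio of means was 7006 and the fitted value 11.93.

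Row-17251, the next row of the table, followed the same course. Among the WT PBS libraries only replicate 2 held any count, with 9 (5.83 CPM). WT replicates 1, 3, 4 and 5 given cerulein had 1977, 3208, 2741 and 1505 CPM. In KO PBS libraries there were 0 counts in replicates 1, 2 and 3, 24 in replicate 4 (1.32 CPM) and 14 in replicate 5 (2.03 CPM). In the KO cerulein group replicates 1 to 5 had 1346, 1938, 4100.2, 1273 and 2578 CPM. The treatments did not overlap, and the lowest cerulein library was 218 times the highest PBS library. Means after cerulein were 2358 CPM ± 762 (SD, n = 4) in WT and 2247 CPM ± 1162 (SD, n = 5) in KO. The fitted log2 fold change over PBS was 12.04 (SE 1.21) in WT and 11.13 (SE 1.12) in KO. The WT value depended on PBS replicate 2: the ratio of group means was 2021, and without that library, against the limit of 3 counts over the remaining 4, WT cerulein was at least 18577-fold higher.

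**Figure D1:**
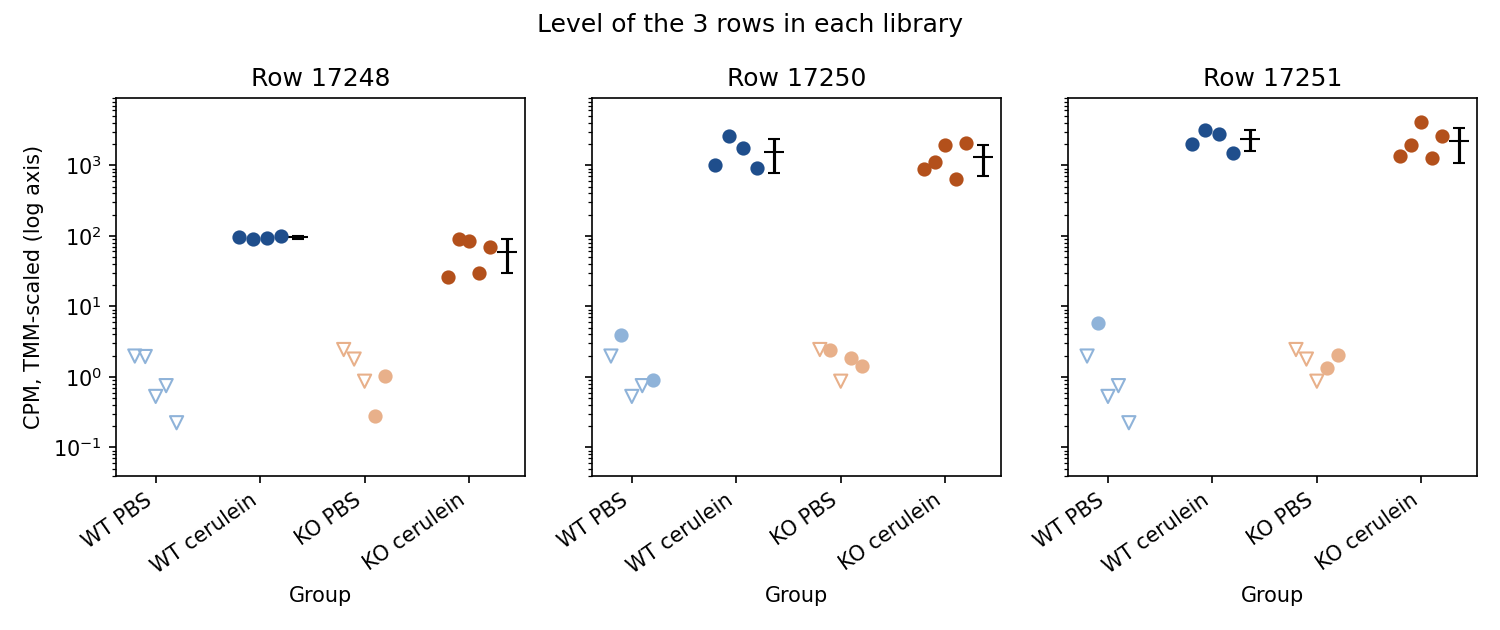
Level of each row in each library on a log axis, in CPM scaled by TMM, for the 4 groups. Filled circles are libraries with counts, open triangles are libraries with 0 counts drawn at the limit of 3 counts, and black bars give mean ± SD of the cerulein groups. In every panel the 9 cerulein libraries lie above all 10 PBS libraries.

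All 3 rows passed the filter on low counts, which they could do through the cerulein libraries alone. They are among the rows that the edgeR quasi-likelihood fit lists as higher after cerulein in both genotypes (3 of 3), a list that holds 4.27% of the 15831 tested rows in WT and 1.35% in KO. All 3 also had no overlap between treatments, as did 8.75% of tested rows in WT and 4.57% in KO. Since the rows were selected on this contrast, nothing is read from those counts. Among the 15804 tested rows with any count after PBS, 8 had a lowest cerulein library over 10 times their highest PBS library, and 2 were over 100 times. Those 2 were row-17251 and row-17250, and row-17248 ranked number 6. A further 27 tested rows were at 0 in all PBS libraries, and 10 of these had counts in every cerulein library.

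What little signal there was after PBS came from few libraries. In 5 of the 10 PBS libraries there were 0 counts in all 3 rows, including WT PBS replicate 3, whose 8681076 counts allow at most 0.529 CPM for a row at 0. Across those 5 libraries the limit ranged up to 2.44 CPM, in KO PBS replicate 1. KO PBS replicates 4 and 5 were the only PBS libraries with counts in all 3 rows. KO PBS replicate 4 was also the deepest library. Together the 3 rows made up at most 0.00119% of a PBS library, against 0.259% to 0.468% of a WT cerulein library and 0.258% to 0.456% of a KO cerulein library.

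To ask whether loss of miR146a altered these transcripts in pancreatitis, KO and WT libraries were compared after cerulein. This comparison was not used to choose the rows, although the cerulein libraries were. None of the 3 rows passed (0 of 3 with edgeR, DESeq2 and limma-voom alike), and 0% of all tested rows passed with edgeR, of which 650 had an unadjusted p under 0.05. DESeq2 called 14 rows of the table and limma-voom 0. At an unadjusted p under 0.05 the count of the 3 rows was 0 with edgeR, 0 with DESeq2 and 1 with limma-voom, which was row-17248. Over the table, 727 of 27704 rows were under that limit with DESeq2 and 1285 of 15831 with limma-voom.

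For row-17248 the KO minus WT difference after cerulein was -0.68 on the log2 scale (SE 0.45, 95% interval -1.62 to 0.27, edgeR adjusted p = 1). In TMM-scaled CPM all 5 KO libraries lay below all 4 WT libraries, by a margin of 90.3 against 90.8 CPM at the nearest. The counting intervals of those 2 libraries, 84.4 to 96.5 CPM for KO replicate 2 and 85.6 to 96.2 CPM for WT replicate 3, overlapped. Such separation in CPM with KO lower was seen in 0.802% of tested rows, and in 1 of these 3. As a plain share of all counts the genotypes overlapped for row-17248. On that scale KO replicate 2 was at 0.00766%, above WT replicate 3 at 0.00718%. Without WT PBS replicate 4 and KO cerulein replicates 1 and 4 the difference was -0.22 (95% interval -1.08 to 0.65). The part of those libraries in the difference was not tested further. An exact two-sided permutation test of log2 CPM gave p = 0.0635, or 0.286 adjusted over 6 such tests.

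The other rows were nearer to equal between genotypes, with wide intervals. Row-17250 differed by -0.24 (SE 0.62, 95% interval -1.52 to 1.04, edgeR adjusted p = 1) and row-17251 by -0.07 (SE 0.75, 95% interval -1.62 to 1.48, edgeR adjusted p = 1). Both genotypes' ranges overlapped for each. The sign changed without the same 3 libraries, to 0.13 for row-17250 (95% interval -1.19 to 1.45) and 0.30 for row-17251 (95% interval -1.34 to 1.94). The intervals depended on which groups shared the estimate of spread. In a fit of the cerulein groups alone the SE was 0.41 for row-17250 (95% interval -1.13 to 0.65) and 0.37 for row-17251 (95% interval -0.88 to 0.74). In that fit row-17248 was at -0.68 (95% interval -1.44 to 0.08, edgeR adjusted p = 0.782). None of these intervals shows that the genotypes were alike.

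**Figure D2:**
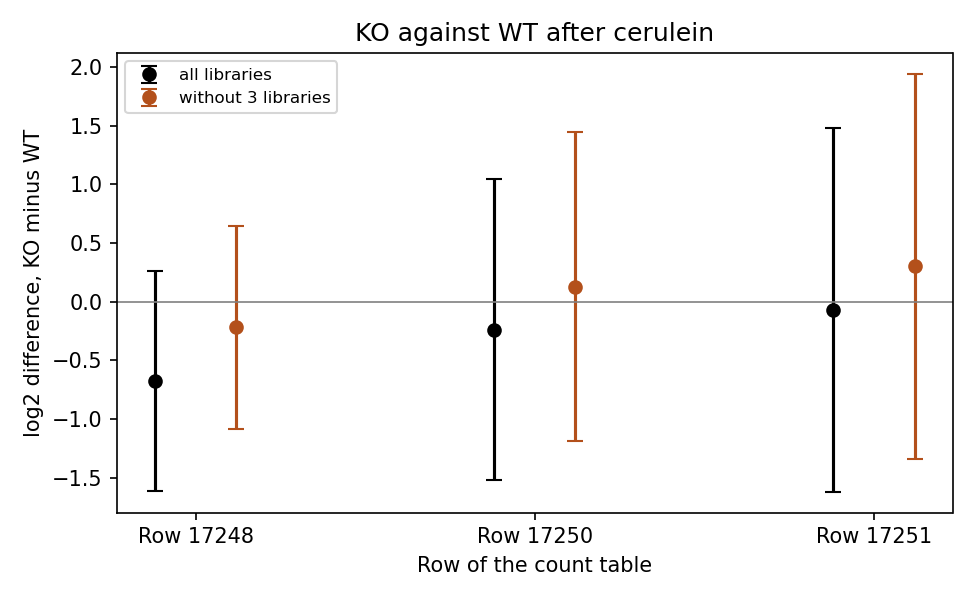
Log2 difference of KO minus WT after cerulein for each row, with 95% intervals from the edgeR fit, for all 19 libraries (black) and without WT PBS replicate 4 and KO cerulein replicates 1 and 4 (orange). All 6 intervals include 0, and row-17248 moves from -0.68 to -0.22.

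How low KO cerulein replicates 1 and 4 appeared depended on the row and on the scale. As a plain share of all counts, row-17248 stayed lowest there, at 0.00331% and 0.00392%, against 0.00578% to 0.00766% in the other 3 KO cerulein libraries. Row-17250 was at 0.111% and 0.0857% against 0.0955% to 0.173%. Row-17251, at 0.171% and 0.168%, lay within the range of the other 3, which was 0.165% to 0.305%. On that scale group means were 0.00539% ± 0.00177 (SD, n = 5) in KO and 0.00861% ± 0.00130 (SD, n = 4) in WT for row-17248. They were 0.122% ± 0.0362 and 0.137% ± 0.0570 for row-17250, and 0.205% ± 0.0599 and 0.207% ± 0.0506 for row-17251, in the same order.

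After PBS the rows were compared between genotypes at very low counts. They reach a fit only through their cerulein libraries: in a fit of the PBS groups alone all 3 fell under the filter and had no test. In the fit over all groups none of 3 passed with edgeR, against 0.0126% of tested rows, and DESeq2 and limma-voom called 0 of 3. At an unadjusted p under 0.05 there was 1 of 3 with edgeR and with DESeq2, and it was row-17248 in both. Over the table, 1401 of 15831 rows were under that limit with edgeR and 1871 of 27704 with DESeq2. Exact two-sided permutation tests of log2 CPM, which use the PBS libraries alone, gave p = 0.0952 for row-17248, 0.437 for row-17250 and 0.421 for row-17251 (0.286, 0.655 and 0.655 adjusted over 6 such tests). Row-17248 had 0 counts over the WT PBS libraries and 12 over the KO PBS libraries, in 2 of 5 of them. Set against 3 counts over the WT group, KO was at least 2.25-fold higher. That bound was 1.09-fold without WT PBS replicate 5, and without KO PBS replicate 5 the KO mean of 0.0689 CPM lay under the WT limit of 0.115 CPM, so no bound remained. Row-17250 had 18 counts in WT and 48 in KO, a fitted log2 difference of 0.85 that was 1.69 without WT PBS replicate 2. Row-17251 had 9 and 38 counts, a fitted difference of 0.83. This was 0.03 without WT PBS replicate 5, 0.26 without KO PBS replicate 5 and 6.48 without WT PBS replicate 2, where the WT group is at 0 and the fitted value is no bound. The permutation tests detected no difference between genotypes for these rows after PBS, which does not show that the genotypes were alike. Since libraries at 0 counts entered these tests by size alone, no conclusion on genotype is drawn from them. Nothing is read from the fitted calls, since the rows were in that fit only through their cerulein libraries.

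Over the 9 cerulein libraries, row-17250 and row-17251 moved together. Whether row-17248 was less closely related to them than they were to each other was not tested. Log2 CPM of row-17250 and row-17251 correlated at Pearson r = 0.915 (exact permutation p = 0.00110, adjusted over 3 pairs 0.00329) and Spearman rho = 0.9 (exact permutation p = 0.00203, adjusted 0.00608). The value was 0.960 within the 4 WT libraries and 0.911 within the 5 KO libraries, given without a test. Without the 2 libraries farthest from the median of row-17250, WT cerulein replicate 3 and KO cerulein replicate 5, r was 0.954 over 7 libraries (exact permutation p = 0.000397). All of these values share each library's scaling factor. With totals in place of TMM, r was 0.814 (exact permutation, adjusted p = 0.0310).

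Row-17248 correlated with row-17250 at r = 0.538 (exact permutation p = 0.167, adjusted 0.167; rho = 0.183, p = 0.644, adjusted 0.644). With row-17251 it was r = 0.604 (exact permutation p = 0.0951, adjusted 0.143; rho = 0.283, p = 0.463, adjusted 0.644). Neither passed. The positive values rested on KO cerulein replicates 1 and 4, the 2 libraries farthest from the median of row-17248. Without them r was -0.56 with row-17250 (exact permutation p = 0.180) and -0.42 with row-17251 (exact permutation p = 0.362) over 7 libraries. Within the 4 WT libraries, where row-17248 hardly varied in CPM, the values were -0.94 and -0.97, and within the 5 KO libraries 0.765 and 0.806.

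**Figure D3:**
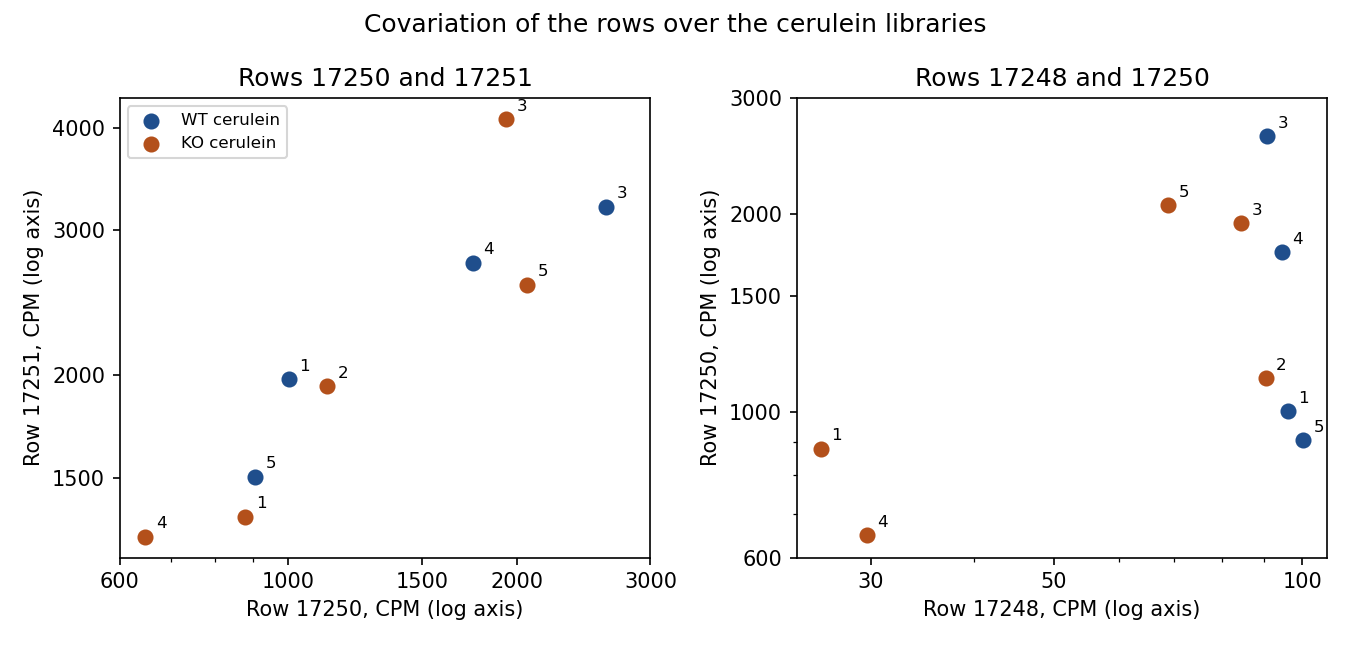
CPM of row-17251 against row-17250 (left) and of row-17250 against row-17248 (right) in the 9 cerulein libraries, on log axes, with replicate numbers beside the points. The left panel forms 1 rising band (r = 0.915), and on the right KO replicates 1 and 4 lie far to the left of the other 7 libraries, at 26.1 and 29.7 CPM.

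Ratios between rows within a library need no scaling between libraries. They are ratios of counts and not of transcript levels, because the lengths behind the rows are unknown. The count of row-17251 was 1.22 to 2.12 times that of row-17250 in the 9 cerulein libraries, with a median of 1.66. The SD of that ratio was 0.28 on the log2 scale, against 0.69 for log2 CPM of row-17250 and 0.58 for row-17251 over the same libraries. Row-17250 had 9.01 to 33.7 times the count of row-17248 (median 21.9), and row-17251 had up to 51.6 times (median 35.3).

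These ratios were compared between KO and WT after cerulein by exact two-sided permutation tests, where the smallest possible p is 0.00794. The log2 ratio of row-17251 to row-17250 was 0.76 ± 0.30 (SD, n = 5) in KO and 0.66 ± 0.29 (SD, n = 4) in WT. The difference was 0.09 (exact permutation p = 0.619, adjusted over 3 pairs 0.619). For row-17250 to row-17248 it was 4.52 ± 0.56 in KO and 3.90 ± 0.78 in WT, a difference of 0.61 (exact permutation p = 0.198, adjusted 0.298). For row-17251 to row-17248 it was 5.27 ± 0.51 in KO and 4.57 ± 0.55 in WT, a difference of 0.71 (exact permutation p = 0.0794, adjusted 0.238). None of the 3 differences passed, and the ranges of KO and WT libraries overlapped in each pair.

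The share of silent rows around these 3 was near that of the whole table. Row-17249, which lies between row-17248 and row-17250, held 0 counts in all 19 libraries. Of the 21 other rows from 10 before row-17248 to 10 after row-17251, 12 were at 0 in every library (57.1%, against 50.1% of all rows of the table). Of these 21, 5 were tested, and 0 of 5 passed for cerulein with edgeR in either genotype, with 0 at an unadjusted p under 0.05. Of the 15831 rows tested, edgeR called 889 in WT and 297 in KO. An unadjusted edgeR p under 0.05 was seen in 3524 and 2373 of them. DESeq2 and limma-voom also called 0 of the neighbours in both genotypes. Over the table DESeq2 called 1936 rows in WT and 956 in KO, and limma-voom 1278 and 1046. With limma-voom, 2 of 5 had an unadjusted p under 0.05 in WT, against 3948 of 15831 rows over the table. With so few rows tested, no lack of response around the 3 rows is read from these counts. The order of rows is not explained in the sources used here and is not taken as a position in the genome.

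One abundant row stood among these neighbours and was singled out after its values were seen. Row-17255, 4 rows after row-17251, was at 15418 CPM ± 26304 (SD, 5 libraries) in WT mice given saline, with 61978 CPM in replicate 3 and a mean of 3778 CPM without it, and at 24178 CPM ± 4536 (SD, 4 libraries) in those given cerulein. The KO values were 41252 CPM ± 28717 with saline and 19539.7 CPM ± 10178 with cerulein (SD, 5 libraries each). Its lowest library had 242 CPM, in the WT saline group. Its log2 change with cerulein was 0.65 in WT (SE 1.05, edgeR adjusted p = 0.778) and -1.08 in KO (SE 1.00, edgeR adjusted p = 0.705).

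**Figure D4:**
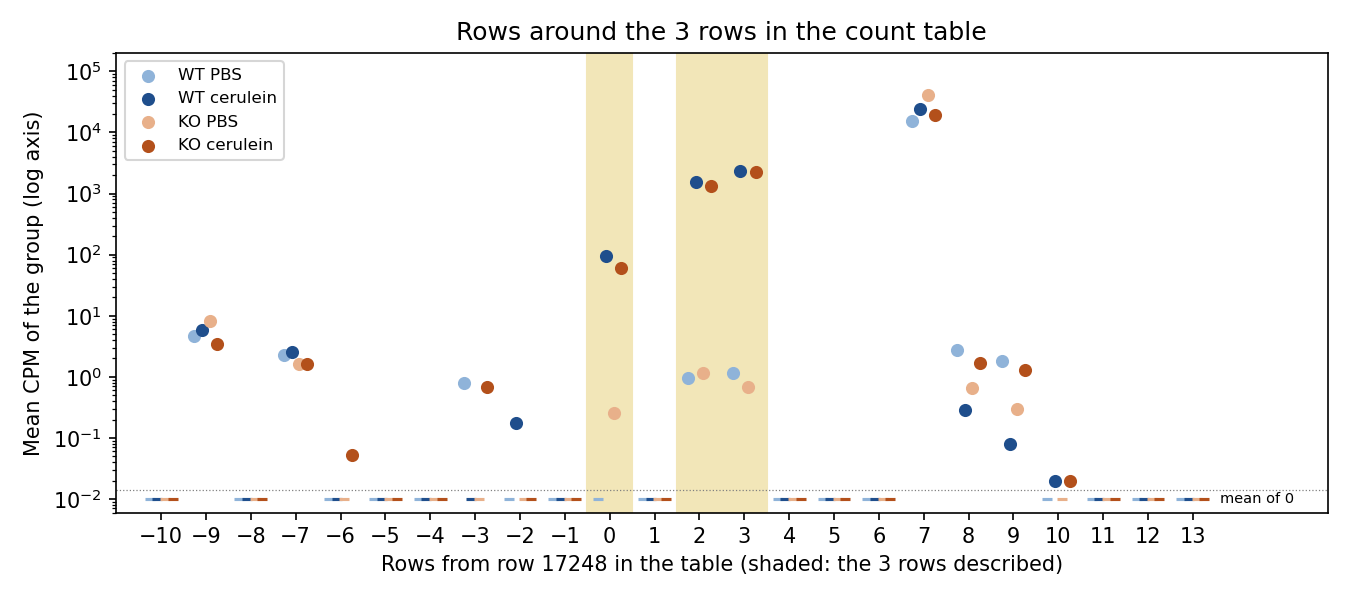
Mean CPM of each group on a log axis for the rows around the 3 described (shaded), by distance in rows from row-17248. Dashes at the bottom mark means of 0. The shaded rows are far higher after cerulein than after PBS in both genotypes, and row-17255, 7 rows on, has the highest means in all 4 groups.

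In both genotypes 166 rows passed as higher after cerulein, and 13 of them (7.83%) had another such row within 3 rows, against 2.51% of all tested rows. Only 3 rows had at least 2 such neighbours, and those were row-17248, row-17250 and row-17251 themselves. This is a description, since the rows were chosen for lying together as well as for their increase.

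A pair of other rows had the profile most like the mean log2 CPM of the 3 over the 19 libraries. Row-2182 reached Pearson r = 0.977 and row-20923 reached 0.966, against a median of 0.06 over the 15828 rows compared, of which 63 exceeded 0.9. The likeness is given as a description. It is pooled over PBS and cerulein libraries, so it takes in the difference between treatments by which the 3 rows were chosen. All rows share the scaling of each library. Row-2182 was at 0 counts in every WT library given saline, and its WT cerulein mean was 60.1 CPM ± 20.7 (SD, n = 4). In KO it had 0.110 CPM ± 0.246 (SD, n = 5) after PBS and 55.7 ± 37.4 (SD, n = 5) after cerulein. Row-20923 had 0.195 CPM ± 0.269 (SD, n = 5) and 24.9 ± 6.67 (SD, n = 4) in WT, for PBS and cerulein in turn. The KO means of that row were 0.361 CPM ± 0.350 and 18.0 CPM ± 9.50 (SD, 5 libraries each). Both lie far from the 3 rows in the table.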

How the data were processed

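The authors deposited whole-number counts for 57126 rows and 20 libraries, without gene names. The submitters' processing notes list STAR, fastp and the build GRCm39, and per the labels' protocols the libraries were stranded and polyA-selected. Which program counted the reads, with which strand setting and gene models, is not given in the sources used here, so any row may share reads with a paralog or an overlapping gene.

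Libraries were matched by the library name in the labels. In R 4.3.3, rows were kept by filterByExpr (minimum 10, total 15; 15831 rows), scaled by TMM and fitted in edgeR 4.0.16 (quasi-likelihood, 1 mean per group, 19 libraries), with Benjamini-Hochberg adjustment over all tested rows. SE is the change divided by the square root of F. DESeq2 1.42.0, limma-voom 3.58.1, RLE scaling, no filter, single-comparison fits, a replicate block and left-out libraries were alternatives. The procedure was tested on simulated data. Exact permutation tests (Python 3.11.15) used log2 values with 0.5 counts added. Limits at 0 use 3 counts, intervals 95% (exact Poisson for counts).

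The 3 rows and the tests were chosen with earlier results of these data known. Rows named beyond the 3 are the row between them, the 2 of most similar profile, and row-17255, chosen after its values were seen.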

Additional observations from a re-analysis of the deposited data

Results flagged for a closer look

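A single library lay far from the rest in 3 of the 17 group-wise sets of values of these rows. A chance rate of about 1 of 20 groups would give 0.85 sets here. That rate may not hold for the 3 flagged sets, which are PBS groups with most libraries at 0 counts. The sets also share libraries, so no excess over chance is read from these numbers. For row-17248 this was KO PBS replicate 5, with 1.01 CPM (7 counts), while the next highest of its group had 0.275. WT PBS replicate 2 had 3.89 CPM of row-17250 (6 counts), and the next had 0.896. That library also had 5.83 CPM of row-17251 (9 counts), where the other 4 WT PBS libraries had 0. All of these values rest on fewer than 10 counts.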

How the results depend on the processing

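Low counts, from 4 to 34 for a row, in 5 of the 10 PBS libraries set the PBS values. The width of the intervals between genotypes depends on whether all groups or only the compared ones share the estimate of spread. No KO against WT call for the 3 rows appeared under any alternative. DESeq2 turned the PBS difference of row-17251 to -0.47, and it ran from 0.03 to 6.48 when single libraries were left out, and was 7.04 without the shallow libraries. After cerulein, leaving out single libraries gave -0.45 to 0.13 for row-17250 and -0.40 to 0.12 for row-17251. Leaving out WT PBS replicate 4 and KO cerulein replicates 1 and 4, called apart here, gave 0.13 and 0.30, and leaving out the shallow ones as well 0.13 and 0.29. Without KO cerulein replicates 1 and 4 the correlations of row-17248 were -0.56 and -0.42. The log2 ratio difference of row-17251 to row-17250 ran from -0.0325 (without WT cerulein replicate 3) to 0.20, over single libraries left out. The KO response of row-17248 was 7.01 to 8.31 over single libraries. Its WT response was 13.00 with edgeR, 10.80 with DESeq2 and 9.52 with limma-voom. The WT PBS group is at 0 counts for row-17248, so these fitted values are no bound. For row-17251 the WT response was 17.92 without the shallow libraries, 17.49 without those apart too, and 11.24 to 17.69 over single libraries. The WT PBS counts of row-17251 are all 0 once WT PBS replicate 2 is left out. Calls over the table, counted in either direction, moved more. In WT they were 889 of 15831 rows with edgeR (676 higher) and 1936 of 27704 with DESeq2 (936 higher). Over single libraries left out they were 378 to 1212. In KO they came to 297 with edgeR (214 higher), 956 with DESeq2 (478 higher), 1046 with limma-voom and 699 without shallow libraries. They were 540 without those apart, 1275 without both, and 144 to 539 over single libraries. Between genotypes after PBS they were 82 with DESeq2, 0 with limma-voom, 1 with only those groups, 8 without both sets and 1 to 12 over single libraries. After cerulein DESeq2 gave 14. The cause of these moves was not tested.

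No pairing of the samples by replicate number was seen. Of 27 same-numbered pairs, 5 deviated together with r over 0.1, and 4 of 19 libraries matched their own number best. Mean r was 0.023 for same-numbered pairs and -0.005 for others. These values do not exclude a pairing, which the labels do not describe. With a replicate block, the differences after cerulein were -0.99, -0.44 and -0.32 for row-17248, row-17250 and row-17251 (edgeR adjusted p = 1 each), and no call for the 3 rows changed. The 3 rows had no test after PBS in the fit of only those groups, where they fell under the filter.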
